A study of Castanea mollissima with 6 samples.

Results

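A set of 39 strongly expressed genes of Chinese chestnut roots, at least 500 FPKM on average in r_3m roots and higher there than in r_1m roots by moderate factors, is described here. They were selected from 33991 genes by 2 measured values. The mean of the 3 r_3m libraries had to reach 500 FPKM (fragments per kilobase of transcript, scaled to the mapped fragments of the library), and log2(mean FPKM + 1) in r_3m minus the same in r_1m had to be at least 1 and below 4. Both group means chose the genes, so their levels and differences are a description and carry no test. Of the 178 genes with at least 500 FPKM in r_3m, 116 differed by no more than 1 on this log2 scale, 13 were lower in r_3m by more than 1, 10 were higher by 4 or more, and the 39 lay between.

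The samples are 6 RNA-sequencing libraries of root total RNA from Castanea mollissima, a tree of the beech family. The sample titles mark 3 of them r_1m and 3 r_3m. The labels give no genotype, age, treatment or growth condition, do not spell out either name, and do not tell how many plants stand behind a group, so spreads between libraries may be technical. Run numbers in the titles form 1 block per group, so a batch and the group cannot be told apart. In bulk roots, fewer cells of a type and less RNA per cell cannot be told apart either.

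A plant root takes up water and ions, anchors the shoot and meets soil microbes, and it changes in makeup as tips grow, vascular tissue matures and outer layers turn woody. In plant roots generally, the most abundant messenger RNAs often encode proteins of the cell wall, water channels, stress and defence proteins, metal-binding proteins and parts of the translation machinery. Which of these classes the 39 genes belong to is not known here, since the table pairs no ID with a name. The first 2 genes are therefore given by ID, the others by rank among the 39 in mean r_3m FPKM and by the first 4 characters of the ID. No root marker could be checked, and genes with near-identical copies may share reads.

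Together the 39 genes took up 3.13 times as large a share of total FPKM in r_3m as in r_1m. Their summed FPKM made up 1.90%, 1.95% and 1.95% of the library total in r_1m replicates 1, 2 and 3, and 6.09%, 5.97% and 6.10% in r_3m replicates 1, 2 and 3. The r_3m shares lay close together, at 6.05% ± 0.0749, against 1.93% ± 0.0317 in r_1m (SD, n = 3 each). The other 139 genes with at least 500 FPKM in r_3m held 15.9% ± 0.200 of the total in r_1m and 14.9% ± 0.371 in r_3m. Total FPKM itself came to 918620 ± 1538 for the r_1m libraries and 881225 ± 8305 for the r_3m libraries (SD, n = 3 each). The gain was not spread evenly: the 4 highest genes gave 37.1% of the summed increase of 35562 FPKM, and the first 2 alone gave 23.5%. Without these 2, the shares were 1.32% in r_1m and 4.52% in r_3m.

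**Figure D1:**
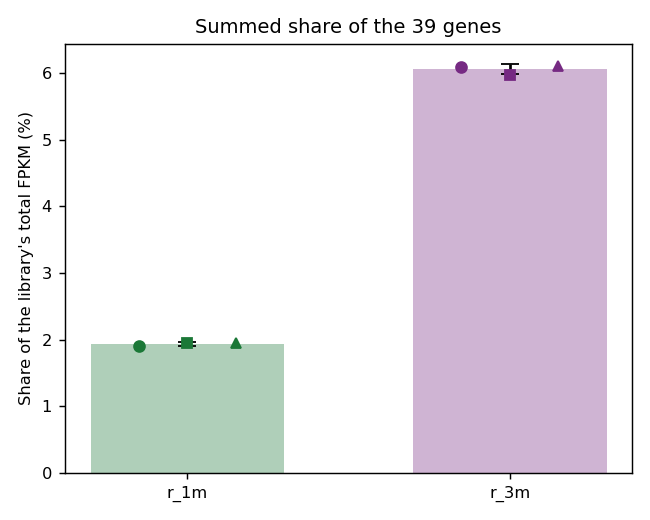
Summed FPKM of the 39 genes as a share of the library's total FPKM, in percent, with bars for the group mean, error bars for the SD and points for the 3 libraries of each group. The r_1m libraries lie between 1.90% and 1.95%, the r_3m libraries between 5.97% and 6.10%.

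The increases were moderate for most genes. Over the 39 genes the median difference was 1.60 on the log2(FPKM + 1) scale, beside 0.02 over all 20038 genes averaging at least 1 FPKM, and the ratio of group means ran from 2.05 to 13.3 with a median of 3.05. A difference of 1 to under 1.5 was seen for 16 genes, 1.5 to under 2 for 9, 2 to under 3 for 9, and 3 to under 4 for 5. Median level went from 212 FPKM in r_1m to 749 FPKM in r_3m. All 39 had every r_3m library above every r_1m library, where 37.2% of the 20038 genes did, and all 39 were called higher (limma, adjusted p below 0.05), where 33.9% were. With the r_1m libraries averaged as 1 sample, an alternative added after seeing the data, 38 were called, where 17.6% of 19880 genes were. The same contrast chose the genes, so nothing is read from these counts. In 8 of the 39, at least 1 r_3m library was under 2 times the r_1m mean, with the lowest such ratio between 1.76 and 1.99.

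**Figure D2:**
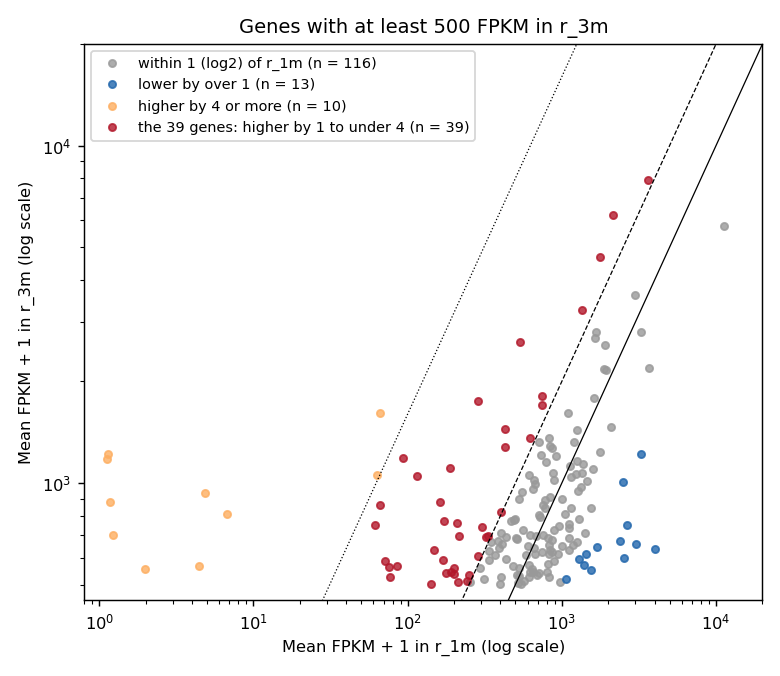
Mean FPKM + 1 in r_1m against mean FPKM + 1 in r_3m, both on log scales, for the 178 genes with at least 500 FPKM in r_3m. The solid line marks equal levels, the dashed line a log2 difference of 1 and the dotted line one of 4; the 39 genes lie between the dashed and dotted lines, from 60.6 to 3620 FPKM in r_1m.

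The genes came from very different starting levels. A group of 8 (ranks 1 to 6, 8 and 10) was already at 500 FPKM or more in r_1m. Another 24 started between 100 and 500 FPKM and 7 started under 100 FPKM. The first group gave 50.8% of the summed increase with a median ratio of 2.44, the middle group 36.6% with a median ratio of 3.03, and the low starters 12.7% with a median ratio of 8.36. Low starters need a larger ratio to reach 500 FPKM, so the selection itself favours high ratios among them. The order of the first and middle groups is not fully fixed by the rule, and what set it was not tested. Among all genes of the table, 24 of the 39 were within the 100 highest in r_3m and 4 within the 100 highest in r_1m. The number among the 10 highest was 5 in r_3m and 1 in r_1m.

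The highest gene of the r_3m roots was Cm07G01522.gene. It measured 3516, 3730.0 and 3613 FPKM in r_1m replicates 1, 2 and 3, and 7218, 7458 and 9041 FPKM in r_3m replicates 1, 2 and 3. Its group means were 3619.9 ± 107 and 7905 ± 991 FPKM (SD, n = 3 each), a log2 difference of 1.13. It moved from place 4 to place 1 among all genes, and its groups do not overlap, although replicate 1 of r_3m stood at 1.99 times the r_1m mean and replicate 3 at 2.50 times.

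Its neighbour by ID number, Cm07G01523.gene, was the second highest. Its FPKM were 2045, 2197 and 2152 in r_1m and 5829, 5654 and 7176 in r_3m, libraries in the same order as above and below, a log2 difference of 1.54. Replicate 3 was the highest r_3m library for both genes of the pair. Dividing the first gene's FPKM by the second's gave 1.72, 1.70 and 1.68 in r_1m and 1.24, 1.32 and 1.26 in r_3m, so that the ratio was lower in r_3m while both genes were higher. How fragments that fit both genes were counted is not given in the sources used here, and shared fragments were not tested.

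Ranks 3 and 4 completed a top group of 4 that had at least 1000 FPKM in both groups. The rank 3 gene, with the prefix Cm11, measured 1714, 1777 and 1797 FPKM in r_1m and 4614, 4209 and 5173 FPKM in r_3m. For the Cm12 gene at rank 4 the values were 1337, 1343 and 1343 FPKM and 2981, 3113 and 3686 FPKM. Like the Cm07 pair, both were highest in r_3m replicate 3. Their log2 differences were 1.40 and 1.28, and the r_1m libraries of the rank 4 gene differed from each other by under 1%, with an SD of 3.63 FPKM.

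The other 4 genes that began at 500 FPKM or more did not all have replicate 3 highest. A Cm05 gene at rank 5 had 522, 534 and 538 FPKM in r_1m and 2934, 2617 and 2279 FPKM in r_3m, and its log2 difference of 2.29 was the largest of the 8. It climbed from place 214 to place 10 of all genes. The Cm01 gene at rank 6 went from 724, 738 and 754 to 1811, 1733 and 1897 FPKM, with the r_3m libraries within 1.09 times of each other. At rank 8, a Cm02 gene measured 744, 747 and 745 FPKM in r_1m, where it was nearly constant, and 2095, 1624 and 1392 FPKM in r_3m. The Cm10 gene at rank 10 stood at 615, 621 and 622 FPKM and 1563, 1303 and 1216 FPKM. Ranks 5, 8 and 10 were highest in r_3m replicate 1 and lowest in replicate 3, while rank 6 was highest in replicate 3 like the top 4.

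**Figure D3:**
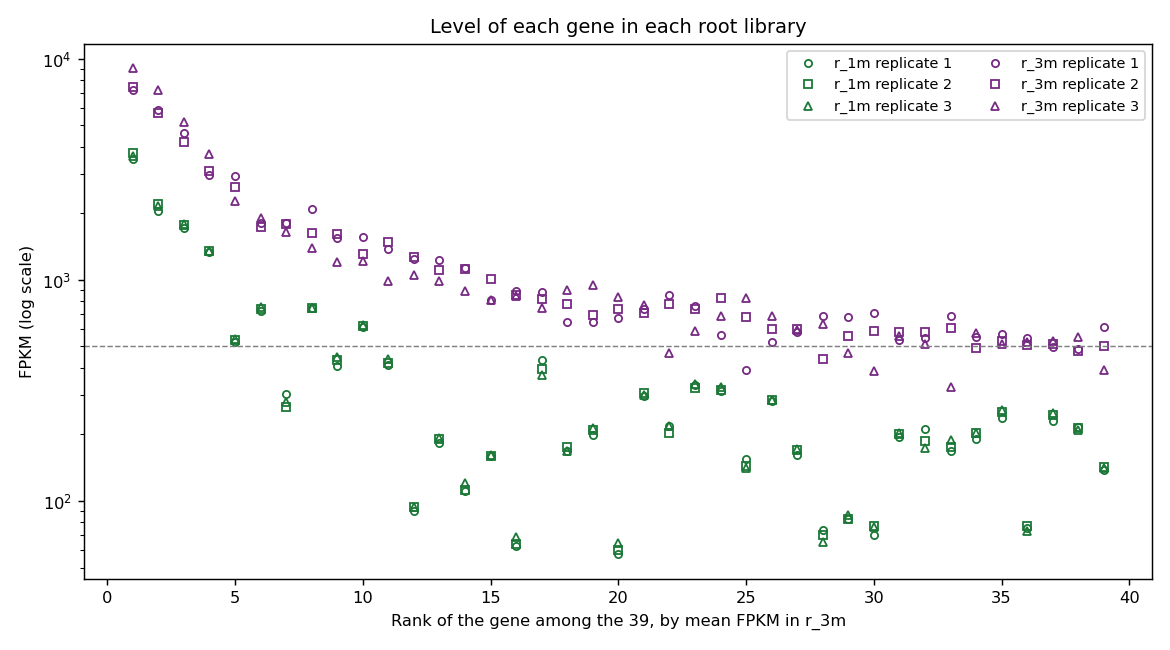
FPKM on a log scale of each of the 39 genes in each of the 6 libraries, with genes ordered by mean r_3m FPKM and the 500 FPKM threshold dashed. Each r_3m point of a gene lies above each of its r_1m points, and the r_1m points of a gene lie closer together than its r_3m points for most genes.

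Genes that started between 100 and 500 FPKM made up the middle of the list. The Cm10 gene at rank 7 measured 305, 267 and 280.4 FPKM in r_1m and 1804, 1785 and 1651 FPKM in r_3m, a log2 difference of 2.62. Rank 9, a Cm01 gene, went from 409, 435 and 447 to 1537, 1608 and 1201 FPKM. The Cm04 gene at rank 11 went from 413, 421 and 439 to 1377, 1479.7 and 989 FPKM. Ranks 9 and 11 had their lowest r_3m value in replicate 3, where both were well below the other 2 libraries. A Cm01 gene at rank 13 had 183, 189.8 and 192 FPKM in r_1m and 1227, 1111 and 988 FPKM in r_3m. The Cm04 gene at rank 14 had the largest ratio of this class, 9.13, with 111, 112 and 121 FPKM in r_1m and 1136, 1117 and 892 FPKM in r_3m. Rank 15, also Cm04, measured 159, 160.2 and 161 and 814, 1011 and 814 FPKM. For all 3, each r_3m library was clear of the r_1m values, at 5 times the r_1m mean or more.

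Ranks 17 to 19 belonged to the same starting class. The Cm01 gene at rank 17 had 432, 395 and 372 FPKM in r_1m and 885, 819 and 748 FPKM in r_3m, the smallest log2 difference of the 39 at 1.03. A Cm08 gene at rank 18 went from 169, 176 and 168 to 644, 774 and 901 FPKM. Rank 19, a Cm12 gene, went from 198, 209 and 213 to 648, 695 and 944 FPKM. Ranks 18 and 19 were highest in r_3m replicate 3, whereas rank 17 was lowest there.

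The 7 genes under 100 FPKM in r_1m sat between places 2031 and 3154 of all genes there and reached places 36 to 165 in r_3m. The Cm04 gene at rank 12 measured 90.5, 93.6 and 94.1 FPKM in r_1m and 1242, 1262 and 1055 FPKM in r_3m, a log2 difference of 3.66. Another Cm04 gene, at rank 16, had the largest difference of all, 3.71, from 62.7, 63.9 and 68.6 FPKM to 893, 854 and 841 FPKM. The Cm01 gene at rank 20 went from 57.3, 60.0 and 64.5 to 672, 738 and 838 FPKM. These were the 3 largest differences of the list, and in each the r_3m libraries lay within 1.25 times of each other. Rank 28, a Cm04 gene, had 74.1, 70.5 and 65.2 FPKM in r_1m and 684, 437 and 633 FPKM in r_3m, with replicate 2 the lowest. A Cm06 gene at rank 30 went from 69.9, 76.7 and 76.3 to 710.2, 586 and 388 FPKM, and its r_3m replicate 3 was the lowest. The other 2, a Cm11 gene at rank 29 and a Cm01 gene at rank 36, had log2 differences of 2.74 and 2.79.

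The remaining genes, between ranks 21 and 39 and between 100 and 500 FPKM in r_1m, had r_3m means from 501 to 738 FPKM. The smallest differences of the list after rank 17 were 1.06 for the Cm11 gene at rank 23, 1.08 for the Cm05 gene at rank 37, 1.08 for the Cm07 gene at rank 26 and 1.10 for the Cm11 gene at rank 35. Most alike between r_3m libraries was the Cm08 gene at rank 27, with 583, 602 and 591 FPKM after 161, 169.9 and 172 FPKM in r_1m. Its r_3m values stayed within 1.03 times of each other, less than those of any other of the 39.

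Just inside the 500 FPKM threshold lay genes at 501, 506 and 513 FPKM in r_3m, and just outside lay genes with qualifying differences at 492, 487 and 475 FPKM. At the lower edge of the difference, the values were 1.03, 1.06 and 1.08 inside, and 0.998, 0.94 and 0.93 outside. At the upper edge they were 3.71, 3.66 and 3.61 inside, and 4.07, 4.60 and 6.90 outside. Values ran on closely across the first 2 edges and were farther apart at the upper edge of the difference. When each library was left out in turn, 31 of the 39 genes met the rule all 6 times and 9 other genes met it at least once.

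Spread between libraries of the same group did not enter the rule itself. The r_3m mean did, however, and 1 high r_3m library can raise it. The selection may therefore favour a wider spread in r_3m, and by how much was not tested. The median SD of log2(FPKM + 1) over the 39 genes was 0.0426 between the r_1m libraries and 0.180 between the r_3m libraries, and 34 of the 39 varied more in r_3m. The exceptions were the genes at ranks 7, 16, 27, 32 and 37. Among the 116 genes of like r_3m level that differed by no more than 1, the medians were 0.0336 and 0.104, and 105 varied more in r_3m. For the 13 genes lower in r_3m they were 0.0448 and 0.248, and for the 10 genes higher by 4 or more 0.106 and 0.234. A wider r_3m spread was therefore shared by all 4 classes, each of which had to reach 500 FPKM in r_3m. The same measure over all genes is not given here, so the wider spread is not shown to be particular to these genes. Whether it differs in size between the 4 classes was not tested, since genes of the same libraries are not replicates. Of the 39 genes, 7 had a highest r_3m library at least 1.5 times the lowest, and none did in r_1m, where the largest such ratio was 1.22. With r_3m replicate 1, 2 or 3 left out, the median SD of the 39 in r_3m was 0.160, 0.216 or 0.0815, lowest without replicate 3. With r_1m replicate 1, 2 or 3 left out, that in r_1m was 0.0214, 0.0478 or 0.0373. Each of these values rests on 1 library fewer, so they are not directly comparable with 0.180 and 0.0426. Relative depth and other technical differences between the libraries were not tested as sources of the spread.

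**Figure D4:**
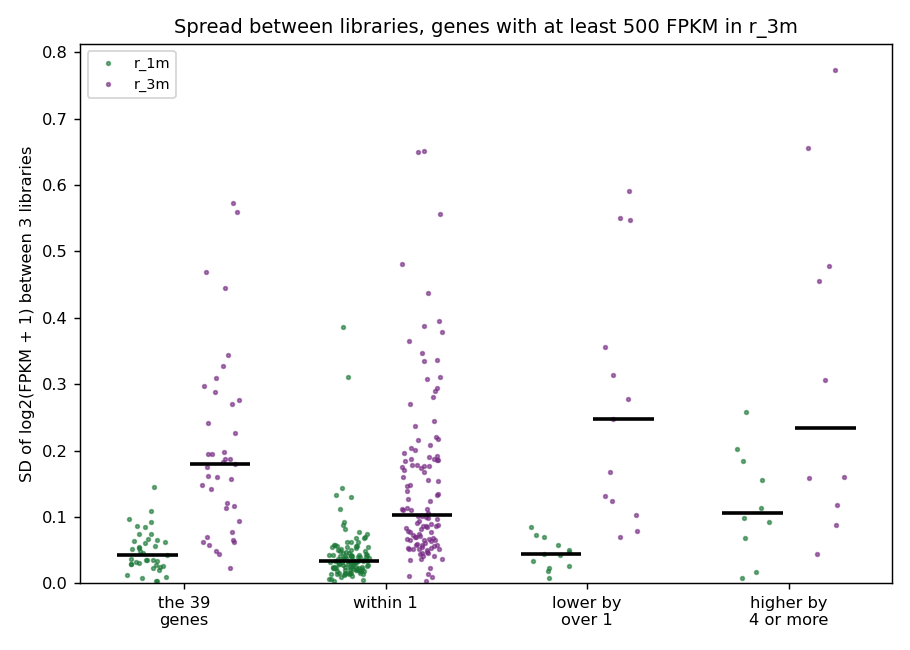
SD of log2(FPKM + 1) between the 3 libraries of a group, 1 point per gene, for the 178 genes with at least 500 FPKM in r_3m, by their difference between groups; black bars are medians. The medians are higher in r_3m than in r_1m in all 4 classes, 0.180 against 0.0426 for the 39 genes.

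The distance between groups was larger than either spread. The median absolute log2 difference over the 39 genes was 0.0302 to 0.0676 in the 3 pairs of r_1m libraries, 0.115 to 0.306 in the 3 pairs of r_3m libraries, and 1.47 to 1.83 in the 9 pairs across groups; the last follows from the selection. Within r_3m, replicates 1 and 2 were the most alike pair and replicates 1 and 3 the least alike.

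Inside r_3m the 39 genes did not move as 1 block. The highest of the 3 libraries was replicate 1 for 17 genes, replicate 2 for 8 and replicate 3 for 14. The lowest was replicate 3 for 19 genes, replicate 1 for 12 and replicate 2 for 8. The commonest order, in 15 genes, had replicate 1 highest and replicate 3 lowest. Replicate 3 minus replicate 1 ran from -1.07 to 1.08 on the log2 scale with a median of -0.08, and was above 0 for 18 of the 39 genes. In the 116 genes that differed by no more than 1 it was above 0 for 62, with a median of 0.01.

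The gene lowest in replicate 3 relative to replicate 1, a Cm01 gene at rank 33, measured 686, 606 and 327 FPKM in r_3m after 168, 175 and 189 FPKM in r_1m. The opposite extreme, a Cm08 gene at rank 25, measured 391, 678 and 828 FPKM after 155, 144 and 141 FPKM in r_1m. For both genes the highest and lowest r_3m libraries differed by over 2 times, at 2.10 and 2.12. The Cm06 gene at rank 30 and the Cm04 gene at rank 22 were next to the first, both at -0.87 on the log2 scale, and the latter measured 849.7, 779.8 and 465 FPKM after 218, 203 and 218 FPKM in r_1m. Across the 39 genes, Spearman's rho of replicate 3 minus replicate 1 was -0.17 with the log2 difference between groups and 0.09 with mean r_3m FPKM. These correlations run over genes that share their libraries and are descriptions.

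**Figure D5:**
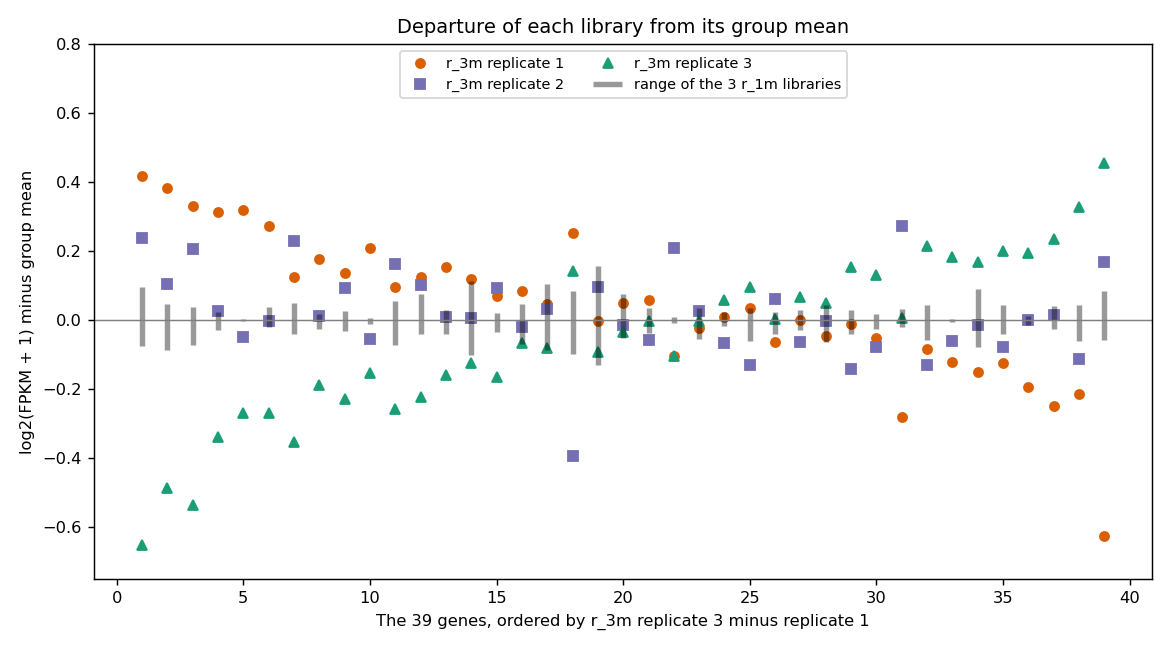
Departure of each library from the mean of its group in log2(FPKM + 1), for the 39 genes ordered by r_3m replicate 3 minus replicate 1; grey bars span the r_1m libraries. Replicates 1 and 3 of r_3m trade places from left to right, and most r_1m bars are narrower than the r_3m points. The difference used for the order, replicate 3 minus replicate 1, runs from -1.07 to 1.08.

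Summing hides this. The 17 genes highest in replicate 1 made up 2.12%, 1.88% and 1.61% of total FPKM in r_3m replicates 1, 2 and 3, and the 14 highest in replicate 3, which include the top 4, made up 3.15%, 3.18% and 3.77%. Those classes were formed from these same values, so their difference is a description. Differences between replicates 1 and 3 of opposite sign offset each other in the summed share of all 39 genes, which stayed between 5.97% and 6.10%.

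Among the r_1m libraries the differences were smaller. Replicate 1 was the lowest r_1m library for 28 of the 39 genes (71.8%), against 50 of the 116 genes that differed by no more than 1 (43.1%), 2 of the 13 genes lower in r_3m (15.4%) and 4 of the 10 genes higher by 4 or more. The steps were small: the median of replicate 3 minus replicate 1 was 0.05 on the log2 scale over the 39 genes. The classes compared were cut by level and difference in these same libraries, and the share over all genes is not given here. Whether these shares differ beyond what libraries of 1 group do was not tested, and with 1 such library there is no replicate of the pattern.

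Gene positions were not used here, but ID prefixes and numbers were compared; that numbers follow gene order was assumed and not checked. The 39 genes carried 11 of the 13 prefixes, with 8 Cm01 genes, 7 Cm04 genes and 5 Cm11 genes, and none with Cm00 or Cm09. Of the 13 Cm04 genes with at least 500 FPKM in r_3m, 7 (53.8%) were among the 39, and of the 31 Cm01 genes 8 (25.8%) were. Over all prefixes it was 39 of 178. Among the 20038 genes averaging at least 1 FPKM, 2992 carried Cm01, 1593 Cm04 and 1458 Cm11. The Cm04 genes stood at ranks 11, 12, 14, 15, 16, 22 and 28, and 4 of them were among the 5 largest differences of the list. Cm04 was picked out after these counts were seen, and no test of prefixes was run.

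Only 2 pairs of the 39 had consecutive numbers. One is the Cm07 pair at ranks 1 and 2. The other is a Cm11 pair at ranks 23 and 32, with 758, 736 and 589 and 544, 582 and 511 FPKM in r_3m, after 334, 325 and 338 and 211, 186 and 173 FPKM in r_1m. The members of this second pair did not follow each other in r_1m, where the gene at rank 32 was highest in replicate 1 and the gene at rank 23 in replicate 3.

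Genes next to the 39 by ID number were mostly far less expressed. Of the 78 immediate neighbours, 55 had a mean of at least 1 FPKM and 6 were listed at 0 in all libraries, and 4 had at least 500 FPKM in r_3m, all of them genes of the 2 pairs. A log2 difference of at least 1 was seen in 15 of the 55 (27.3%), or in 11 of 51 (21.6%) with the pairs left out. It was 10.4% of 211 neighbours of the other 139 genes with at least 500 FPKM in r_3m, and 12.2% of all 20038 genes. Decreases of at least 1 were 8 of 51 (15.7%), against 42 of 211 (19.9%) beside the other 139 genes and 15.6% of all genes. These are counts over genes of the same libraries with no test, and neighbours may share fragments.

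The largest neighbouring change lay beside the Cm05 gene at rank 37, whose next ID had 3.60, 2.85 and 3.14 FPKM in r_1m and 148, 176 and 213 FPKM in r_3m. The gene before rank 28 measured 230.3, 242 and 246 FPKM in r_1m and 507, 401 and 569 FPKM in r_3m, which left it just under the 500 FPKM threshold. It was lowest in r_3m replicate 2, as was the gene at rank 28. Beside the Cm01 gene at rank 13, the gene before it went from 14.3, 13.6 and 11.1 FPKM to 104, 96.3 and 146 FPKM, highest in replicate 3, where the gene at rank 13 was lowest. Neighbours therefore did not always share the order of the r_3m libraries. These 3 neighbours were picked after their values were seen.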

How the data were processed

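The 6 root libraries were compared as 3 r_1m and 3 r_3m samples, grouped by their titles; replicate numbers follow record order, with no pairing. The authors deposited FPKM values, scaled to transcript length and mapped fragments, with 2 decimals. Per the submitters' processing notes, FastQC 0.11.9 served for quality checks, Trimmomatic for trimming and STAR 2.7.10b for alignment. Not given in the sources used here: read counter, genome build, annotation and treatment of multi-mapping reads. Of the table's columns of values, 6 match the titles and were used, and 207 were not. No counts were given, so absolute depth is unknown, no interval or detection floor was set, and no count model was used.

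The 39 genes, and the measures described, were chosen with earlier results of these data known. Group means, SDs, ratios and library shares were computed in Python 3.11.15 with pandas 2.3.3 on the deposited values. As background, limma 3.58.1 in R 4.3.3 was run across all 20038 genes averaging 1 FPKM or more, on log2(FPKM + 1). It used a variance trend, was two-sided, and had Benjamini-Hochberg adjustment with calls at an adjusted p below 0.05. The fit was tested on simulated data with the same spread in both groups, taken from r_3m. That simulation does not cover the unequal spreads of the groups seen here. Differences on the log2(FPKM + 1) scale understate the change of low genes. Genes given by ID are the 2 with the highest r_3m mean; others are described by rank: the 20 highest, the 5 largest and 5 smallest differences, those at the thresholds and pairs of consecutive IDs. Genes singled out for their r_3m spread or their neighbours were chosen after their values were seen. Lists by product name were not run, since no names were given. Alternatives changed the scale, pseudocount, mean, thresholds, filter and libraries.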

Additional observations from a re-analysis of the deposited data

How the results depend on the processing

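The number of genes that met the rule was 39; it depended most on the level asked for, with 14 genes at a minimum of 1000 FPKM in r_3m and 113 at 300 FPKM. Rescaling every library to the same total (TPM scale) gave 54 genes, all 39 among them; it moves both the levels and the differences that the rule uses, and which of them added genes was not tested. Median-of-ratios scaling gave 37, a pseudocount of 0.1 gave 40 and a geometric mean 38. Leaving out 1 library gave 39 to 40 genes, of which 34 to 39 were shared. Without the 2 highest genes, the share of total FPKM was 4.52% in r_3m and 1.32% in r_1m, so the shares rest partly on them; leaving out 1 library gave 6.03% to 6.09% and 1.92% to 1.95%. The median log2 difference ran from 1.54 to 1.75 without 1 library, and was 1.66 on the TPM scale, 1.58 after median-of-ratios scaling and 1.61 at a pseudocount of 0.1. The median SD ran from 0.0815 to 0.216 in r_3m and from 0.0214 to 0.0478 in r_1m when 1 library was left out, and the cause was not tested. Counting the averaged r_1m libraries as 1 sample, an alternative added after seeing the data, left 3497 genes called higher and 3457 lower, where 6787 and 6732 were called with 3 r_1m samples; fewer samples enter that fit. The calls ran from 5842 to 7106 higher and from 5769 to 7355 lower without 1 library. No paired analysis was possible because replicate numbers come from record order alone. FPKM keep no absolute depth, so counting error behind a value is unknown.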
